A study of Saccharomyces cerevisiae with 12 samples.

Results

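The genes followed here are 9 genes of DNA end resection and of replication protein A (RPA) in *S. cerevisiae*, taken by name from the count table: SGS1 (YMR190C), EXO1 (YOR033C), DNA2 (YHR164C), RFA1 (YAR007C), RFA2 (YNL312W), RFA3 (YJL173C), SRS2 (YJL092W), TOP3 (YLR234W) and RMI1 (YPL024W). All 9 were present among the 7123 rows of the table, and all 9 passed the minimum of 10 reads over the libraries, which left 6490 genes for testing. Polyadenylated RNA was sequenced from W303-derived WT cells and from cells lacking RAD30, which encodes the translesion polymerase Polη (rad30Δ). Both strains were grown in 2% raffinose and arrested in G2/M with 80 µg/ml benomyl for 3 hours, and samples were taken before and after 1 hour in 2% galactose, which induces the HO endonuclease and so a double-strand break (DSB) at the MAT locus on chromosome III. Each of the 4 groups has 3 libraries: G2/M arrested WT, WT after DSB induction, G2/M arrested rad30Δ and rad30Δ after DSB induction. The sources do not say which strains of the study's list were sequenced. For both genotypes that list holds strains with the inducible HO alone and strains that also carry a temperature-sensitive smc1 allele and a galactose-inducible SMC1, and the rad30 deletion is a replacement by a marker gene. No library had galactose without the break, so the effects of the break, of galactose and of any other galactose-driven gene cannot be told apart.

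When a DSB forms in yeast, the MRX complex and Sae2 start to cut back the 5′ strand, and long-range resection is then carried on by the nuclease Exo1 or by the helicase Sgs1 together with the nuclease Dna2. The single-stranded DNA that is left is coated by RPA, a trimer of Rfa1, Rfa2 and Rfa3, which protects it, is the platform for the Mec1-Ddc2 checkpoint kinase, and is later cleared from it as homologous recombination goes on. Sgs1 also works with the topoisomerase Top3 and its partner Rmi1 to take apart joint DNA molecules, and the helicase Srs2 limits recombination. RPA, Dna2 and Sgs1 act in normal DNA replication as well.

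Reads assigned to genes numbered 5442935 to 7289514 per library. RAD30 had 0 reads in each rad30Δ library, whereas WT cells held 46.6 ± 6.01 CPM (read counts scaled to library size with TMM factors; SD, n = 3) before and 42.0 ± 3.82 CPM after DSB induction. HO rose from 40.3 ± 3.22 to 4564 ± 215 CPM in WT and from 38.2 ± 2.27 to 4196 ± 501 CPM in rad30Δ cells. The strains also differed in mating type markers: the 5 a-cell markers (STE2, STE6, BAR1, MFA1, MFA2) summed to 1265 to 1691 CPM in the WT libraries and 70.9 to 113 CPM in the rad30Δ libraries, and the 4 α-cell markers (STE3, MF(ALPHA)1, MF(ALPHA)2, SAG1) to 161 to 209.9 and 2482 to 5863 CPM. All 9 markers differed between the strains at both times by edgeR's quasi-likelihood test, and 0 of them were at 0 reads. In the study's list, all α strains with the rad30 deletion and inducible HO also carry the smc1 allele, the galactose-inducible SMC1 and a GFP reporter array. WT a strains with inducible HO are listed both with and without these. Strain differences given below therefore cannot be told apart from a difference in mating type, or in these other alleles if the WT strain lacked them. The third rad30Δ library after DSB induction stood apart, with a TMM factor of 0.873 against 0.971 to 1.05 in the other 11 libraries and 0.205% mitochondrial reads against at most 0.0743%. Calls of the 9 genes that changed without it are given with both values. The labels do not say whether the 3 libraries of a group are separate cultures, so p-values measure only the spread between these libraries.

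Compared per coding length, RFA3 and RFA2 had the highest values of the 9 genes, RMI1 and RFA1 came next and TOP3 had the lowest. The order rests on this scaling, and RFA3 is the shortest of the 9 at 369 bases. In CPM it was below RFA1 and SRS2 in arrested WT cells (means of 97.45, 196 and 143). In G2/M arrested WT cells RFA3 stood at 264 ± 8.49 RPKM (TMM-scaled CPM per kilobase of coding length; SD, n = 3) and RFA2 at 260.3 ± 7.25 RPKM, which overlapped, while RFA1, which encodes the large DNA-binding subunit, was at 105 ± 2.91 RPKM. RMI1 was at 110.5 ± 7.61 RPKM, also overlapping with RFA1, whereas in arrested rad30Δ cells it stood at 123.5 ± 5.44 RPKM against 72.6 ± 6.54 RPKM for RFA1. SRS2 (40.6 ± 1.86 RPKM) and EXO1 (36.0 ± 1.29 RPKM) followed, then DNA2 (22.5 ± 1.67 RPKM), SGS1 (18.7 ± 0.433 RPKM) and TOP3 (6.78 ± 1.39 RPKM). Over all 12 libraries, 86.1% of the 6108 genes with a coding length lay below RFA3, 63.9% below RFA1, 15.2% below SGS1 and 5.50% below TOP3. The order was the same in all 4 groups except that EXO1 (36.6 ± 3.81 RPKM) and SRS2 (35.8 ± 3.15 RPKM) changed places in G2/M arrested rad30Δ cells, within their spread. The RPA subunits did not hold equal levels per length: the RFA1 to RFA2 ratio of RPKM was 0.403 ± 0.00294 in G2/M arrested WT cells, 0.365 ± 0.0100 in WT cells after DSB induction, 0.342 ± 0.0368 in arrested rad30Δ cells and 0.379 ± 0.00616 in rad30Δ cells after DSB induction. The RFA2 to RFA3 ratio lay between 0.876 and 1.06 in all 12 libraries.

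**Figure D1:**
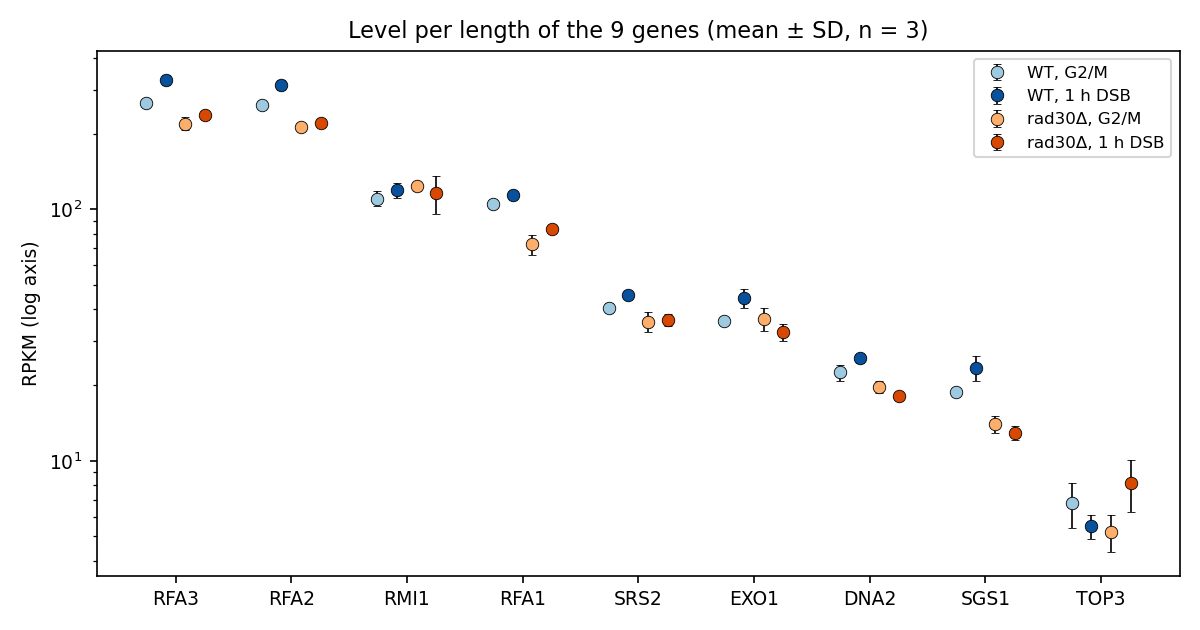
Level of the 9 genes per coding length, in RPKM on a log axis, with a point for the mean of each group and a bar for the SD over 3 libraries. RFA3 and RFA2 lie highest and TOP3 lowest in all 4 groups, and the WT points of SGS1 lie above the rad30Δ points.

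The 3 RPA subunit genes had lower levels in rad30Δ cells, both before and after DSB induction. RFA1 stood at 192, 202 and 193 CPM in the 3 G2/M arrested WT libraries and at 138, 146 and 122 CPM in the arrested rad30Δ libraries. After DSB induction it stood at 213, 218 and 208 CPM in WT and at 156, 156 and 155 CPM in rad30Δ cells. The strains did not overlap at either time, and in WT every library after DSB induction was above every arrested library by a small margin. RFA1 was lower in rad30Δ cells by a log2 fold change of -0.53 (SE 0.0702, adjusted p = 3.12e-04, edgeR's quasi-likelihood test) in G2/M arrest and of -0.45 (SE 0.0702, adjusted p = 7.04e-04) after DSB induction. Its change on DSB induction did not pass the test in WT (log2 0.12, SE 0.0697, adjusted p = 0.264) or in rad30Δ cells (log2 0.20, SE 0.0706, adjusted p = 0.114).

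RFA2, which encodes the middle subunit, a target of checkpoint kinases, stood at 211, 221 and 209.8 CPM in arrested WT cells and rose to 255, 270.5 and 246 CPM after DSB induction. In rad30Δ cells it was at 180.4, 169 and 175 CPM before and at 182, 184 and 178 CPM after induction. The WT libraries were therefore higher at both times, and the 2 rad30Δ groups overlapped. The rise in WT was 0.26 on the log2 scale (SE 0.0622, adjusted p = 0.0170), and the change in rad30Δ cells was 0.052 (SE 0.0626, adjusted p = 0.674). The strain difference was -0.29 (SE 0.0624, adjusted p = 0.00930) in G2/M arrest and -0.50 (SE 0.0625, adjusted p = 1.34e-04) after induction.

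RFA3, which encodes the smallest subunit, stood at 97.3, 94.4 and 101 CPM in arrested WT cells and at 122.5, 114.5 and 126 CPM after DSB induction. In rad30Δ cells the values were 80.6, 76.3 and 85.9 CPM before and 88.1, 87.8 and 86.2 CPM after induction. RFA3 thus had the 4 groups in the same order as RFA1 and RFA2, with WT after induction highest and arrested rad30Δ cells lowest. The rise in WT was 0.31 on the log2 scale (SE 0.0621, adjusted p = 0.00699). In rad30Δ cells all 3 libraries after induction were above the arrested ones, but the difference of 0.11 (SE 0.0634, adjusted p = 0.325) did not pass the test. The strain difference was -0.27 (SE 0.0627, adjusted p = 0.0159) in G2/M arrest and -0.47 (SE 0.0627, adjusted p = 2.33e-04) after induction.

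The stability of these calls differed. The 3 strain differences after DSB induction passed with any one of the 12 libraries left out. In G2/M arrest RFA1 also passed throughout, whereas RFA2 did not pass without WT replicate 2 (adjusted p = 0.0518), and RFA3 did not pass without WT replicate 3, rad30Δ replicate 1 or rad30Δ replicate 2 (adjusted p up to 0.0722). The WT rise of RFA3 passed with any one library left out, and that of RFA2 was lost without arrested WT replicate 1 or 3 or induced WT replicate 1 or 2 (adjusted p up to 0.0828).

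**Figure D2:**
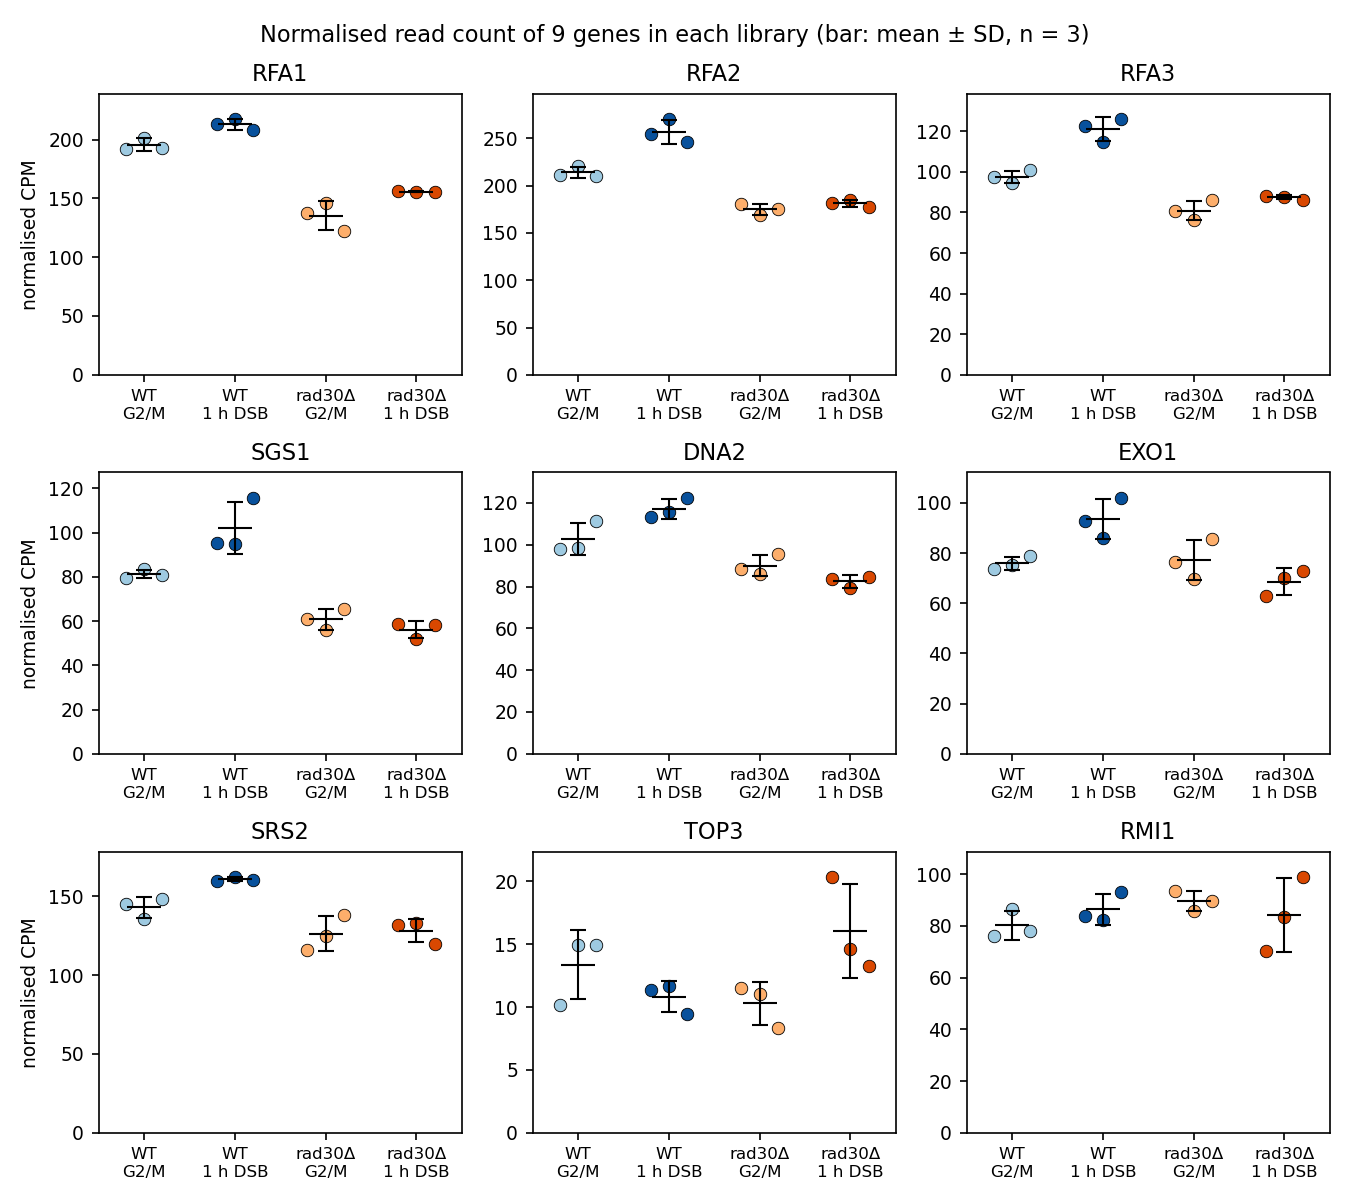
Normalised read count (TMM-scaled CPM, axis from 0) of the 9 genes in each of the 12 libraries, with a point per library and the mean with its SD (n = 3) in black. In 7 panels the WT libraries after DSB induction are highest; TOP3 and RMI1 do not follow this order.

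The stretches of DNA before the 3 RPA genes and EXO1 are shown because the MCB element ACGCGT, the site bound by the G1/S factor MBF, lies in 3 of them. The windows run from 300 to 51 bases before the start codon on the coding strand of the R64 assembly, with exact matches in capitals.
RFA1: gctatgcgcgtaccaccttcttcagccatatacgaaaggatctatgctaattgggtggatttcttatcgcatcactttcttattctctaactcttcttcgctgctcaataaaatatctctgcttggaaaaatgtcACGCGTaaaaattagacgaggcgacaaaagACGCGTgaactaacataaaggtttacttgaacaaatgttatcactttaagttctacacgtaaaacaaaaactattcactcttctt
RFA2: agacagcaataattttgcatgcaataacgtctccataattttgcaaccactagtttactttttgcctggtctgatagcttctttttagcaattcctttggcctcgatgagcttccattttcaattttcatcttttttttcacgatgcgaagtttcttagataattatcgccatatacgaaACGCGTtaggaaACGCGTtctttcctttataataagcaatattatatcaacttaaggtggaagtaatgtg
RFA3: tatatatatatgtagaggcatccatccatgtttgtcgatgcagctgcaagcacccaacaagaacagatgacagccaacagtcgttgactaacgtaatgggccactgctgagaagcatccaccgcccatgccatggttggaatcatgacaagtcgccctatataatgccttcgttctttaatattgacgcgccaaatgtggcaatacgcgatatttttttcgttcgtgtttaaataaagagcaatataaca
EXO1: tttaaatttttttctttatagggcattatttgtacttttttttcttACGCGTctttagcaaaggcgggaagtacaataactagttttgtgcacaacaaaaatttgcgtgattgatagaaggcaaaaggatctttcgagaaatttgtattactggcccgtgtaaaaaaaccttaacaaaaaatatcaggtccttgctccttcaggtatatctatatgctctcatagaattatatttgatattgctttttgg
These are chrI:158670-158919 (minus strand) for RFA1, chrXIV:47987-48236 (plus strand) for RFA2, chrX:96580-96829 (minus strand) for RFA3 and chrXV:394575-394824 (minus strand) for EXO1.

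Within the 300 bases before the start codon RFA1 had 2 MCB matches, which began 165 and 135 bases before the start codon, and RFA2 had 2, at 120 and 108 bases. EXO1 had 1 at 254 bases, and the other 6 genes had none. ACGCGT was found on either strand in 3.48% of the 6001 nuclear protein-coding genes with a window of this length. The SCB element CGCGAAA, which binds the related factor SBF, was found 1 time each before DNA2 (207 bases, on the opposite strand) and TOP3 (130 bases) and in 3.95% of all windows, and the URS1 core GCCGCC was before 0 of the 9 genes and in 5.20% of all windows. No searched motif overlapped another in these 9 genes. RFA3 had no exact match of the 3 motifs in its window. Whether the motifs go with the levels of these genes was not tested. A match describes the letters only and says nothing of binding.

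**Figure D3:**
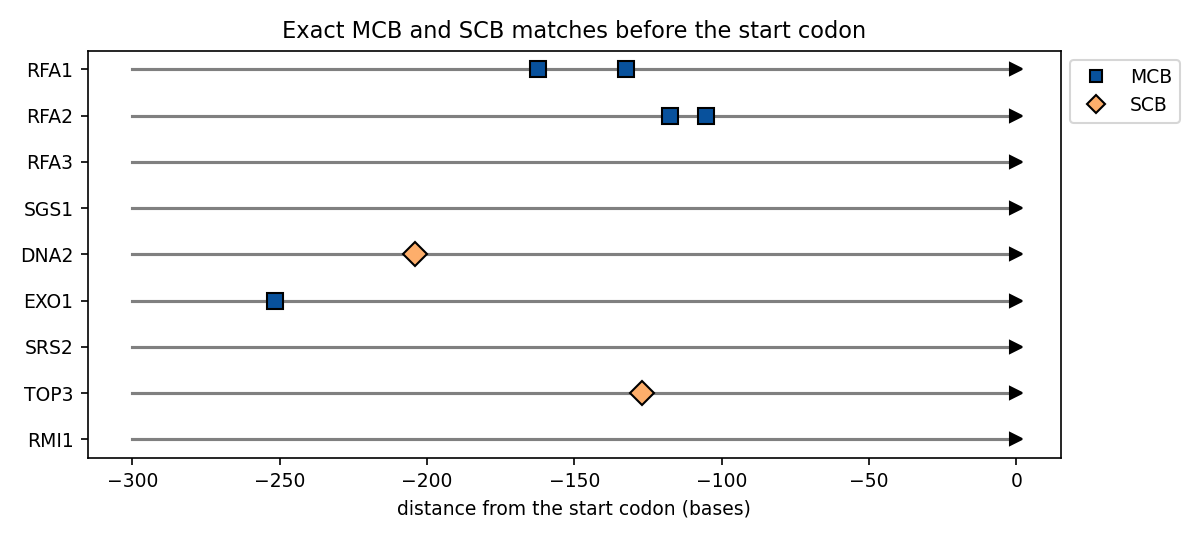
Exact matches of the MCB and SCB elements before the 9 genes, by distance from the start codon in bases (the arrowhead marks the start codon). RFA1 and RFA2 have 2 MCB matches each, EXO1 has 1, and DNA2 and TOP3 have 1 SCB match each.

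The gene bodies themselves are simple. RFA1 lies on chromosome I at 156754 to 158619 (minus strand), RFA2 on chromosome XIV at 48287 to 49216 (plus), RFA3 on chromosome X at 96161 to 96529 (minus), SGS1 on chromosome XIII at 640915 to 645258 (minus) and DNA2 on chromosome VIII at 424610 to 429178 (minus). EXO1 lies on chromosome XV at 392416 to 394524 (minus), SRS2 on chromosome X at 257423 to 260947 (plus), TOP3 on chromosome XII at 609783 to 611753 (plus) and RMI1 on chromosome XVI at 503517 to 504242 (plus). Each has a single exon except RFA2, which has 2 exons around an intron of 108 bases. The annotated coding regions overlapped no other gene of the R64 annotation, but all 9 face a convergent neighbour downstream, at a gap of 39 bases for EXO1 and 40 for TOP3 up to 468 for RFA1. The sources do not say if counting used the strand, so reads from the ends of such neighbours cannot be told apart from those of the member. TOP3 also overlaps the dubious open reading frame YLR235C, which has its own row with 0 to 4 reads per library. The sources do not say how reads shared by overlapping genes were counted, so the TOP3 level may leave such reads out. Overlap of the other genes with dubious reading frames was not examined.

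SGS1, the helicase gene of long-range resection, had the largest strain difference of the 9 after DSB induction. It stood at 79.7, 83.3 and 80.8 CPM in arrested WT cells and at 95.4, 94.9 and 116 CPM after DSB induction. In rad30Δ cells it was at 60.9, 55.9 and 65.5 CPM before and at 58.5, 51.9 and 58.0 CPM after induction. All 6 rad30Δ libraries were below all 6 WT libraries, and the gap was widest after induction. The strain difference was -0.42 on the log2 scale (SE 0.0885, adjusted p = 0.00831) in G2/M arrest and -0.86 (SE 0.0895, adjusted p = 3.46e-05) after induction, when rad30Δ cells held 0.550 of the WT level. SGS1 rose by 0.33 (SE 0.0866, adjusted p = 0.0290) in WT, and the change in rad30Δ cells was -0.11 (SE 0.0911, adjusted p = 0.499).

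DNA2, the nuclease that cuts the strand unwound by Sgs1, stood at 98.1, 98.3 and 111 CPM in arrested WT cells and at 113, 115 and 122 CPM after induction, with no overlap. In rad30Δ cells it moved the other way without overlap, from 88.5, 86.0 and 95.6 CPM to 83.8, 79.1 and 84.5 CPM. Neither change passed the test (log2 0.19, SE 0.0692, adjusted p = 0.0906 in WT; log2 -0.13, SE 0.0706, adjusted p = 0.316 in rad30Δ cells). The strain difference was -0.19 (SE 0.0695, adjusted p = 0.112) in arrest and passed after induction at -0.51 (SE 0.0704, adjusted p = 3.04e-04).

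EXO1, the nuclease of the parallel pathway, did not differ detectably between the arrested strains. It stood at 73.5, 75.3 and 78.8 CPM in arrested WT cells and at 92.8, 86.2 and 102 CPM after induction, and at 76.5, 69.6 and 85.6 CPM and then 62.7, 70.2 and 73.0 CPM in rad30Δ cells. The WT libraries after induction were above all other 9 libraries. The strain difference in arrest was 0.026 on the log2 scale with a 95% interval from -0.17 to 0.22, and after induction it was -0.45 (SE 0.0902, adjusted p = 0.00357). The rise in WT was 0.31 (SE 0.0891, adjusted p = 0.0418). This call was lost without any one of the 6 WT libraries or arrested rad30Δ replicate 1 (adjusted p up to 0.176), and that of SGS1 without any arrested WT library or induced WT replicate 3 (adjusted p up to 0.134).

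SRS2, the helicase that limits recombination, had a smaller strain difference. Arrested WT libraries held 145, 136 and 148 CPM and induced WT libraries 159.7, 162 and 160.4 CPM, against 116, 124 and 138 CPM and then 132, 133 and 119.7 CPM in rad30Δ cells. The arrested strains overlapped by 1 library of each, whereas after induction all rad30Δ libraries were below all WT libraries. The strain difference was -0.33 (SE 0.0744, adjusted p = 0.00790) after induction and -0.18 (SE 0.0741, adjusted p = 0.159) in arrest. The change on DSB induction was 0.17 (SE 0.0740, adjusted p = 0.153) in WT and 0.023 (SE 0.0745, adjusted p = 0.889) in rad30Δ cells.

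The 2 partners of Sgs1 did not follow it. RMI1, which encodes the Top3-Sgs1 cofactor, stood between 70.3 and 98.9 CPM in all 12 libraries and the groups overlapped in every comparison. Its strain difference after induction was -0.042 on the log2 scale with a 95% interval from -0.27 to 0.19, an interval that does not hold the -0.86 of SGS1. Within a library the SGS1 to RMI1 ratio of RPKM was 0.170 ± 0.00755 and 0.197 ± 0.00912 in WT before and after induction, against 0.113 ± 0.00757 and 0.114 ± 0.0222 in rad30Δ cells (SD, n = 3), and every rad30Δ library had a lower ratio than every WT library.

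TOP3, the topoisomerase gene, had the fewest reads of the 9, at 54 to 143 per library, and the widest intervals. It stood at 10.2, 15.0 and 14.9 CPM in arrested WT cells, 11.4, 11.7 and 9.44 CPM in induced WT cells, 11.5, 11.0 and 8.32 CPM in arrested rad30Δ cells and 20.4, 14.6 and 13.2 CPM in induced rad30Δ cells. After induction the rad30Δ libraries were thus above the WT libraries, the opposite of the 7 genes that were lower. That difference was 0.58 on the log2 scale (SE 0.211, adjusted p = 0.0659), and the change of rad30Δ cells on induction was 0.65 (SE 0.208, adjusted p = 0.0863), so neither passed. Without the third induced rad30Δ library they were 0.69 (adjusted p = 0.0267) and 0.76 (adjusted p = 0.0404) and passed, and DESeq2 gave 0.59 (adjusted p = 0.0427) and 0.66 (adjusted p = 0.0424). Leaving out other libraries took the 2 values as low as 0.37 and 0.44.

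As a set, 4 of the 9 (RFA1, SGS1, RFA2 and RFA3) were lower in the arrested rad30Δ cells and 0 were higher, a count that was also 0 at an unadjusted p under 0.05 and with DESeq2. Over all genes tested 6.1% were lower and 4.71% higher in this comparison, and the median log2 fold change was -0.27 over the 9 genes and -0.0011 over all genes. In 5 of the 9, DNA2 being the fifth, all rad30Δ libraries were below all WT libraries, which was so for 16.6% of all genes. After DSB induction 7 of the 9 were lower and 0 higher (1 higher, TOP3, with DESeq2 and at an unadjusted p under 0.05), against 11.8% and 11.6% of all genes, with medians of -0.45 and 0.0012. The same 7 genes had no overlap between the strains, against 18.8% of all genes in this direction. In WT cells 4 of the 9 rose on DSB induction (RFA3, RFA2, SGS1 and EXO1) and 0 fell (also 0 at an unadjusted p under 0.05 and with DESeq2), against 6.07% and 6.29% of all genes, and 7 of the 9 had all induced libraries above all arrested ones, against 22.9% of all genes. The WT medians were 0.19 and 0.0038. Without 1 library the number of the 9 that passed was 1 to 4 in this comparison, 3 to 4 between the arrested strains and 7 to 8 between the induced strains, and the lowest counts in WT came without arrested replicate 1 or arrested replicate 3.

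In rad30Δ cells 0 of the 9 passed on DSB induction in the edgeR test, against 3.68% of all genes that rose and 2.65% that fell. At an unadjusted p under 0.05 there were 2 (TOP3 and RFA1), against 1426 of the 6490 genes tested. DESeq2 called 1 (TOP3) as higher, against 360 higher and 230 lower of 6107 genes. All induced libraries were above all arrested ones for 3 of the 9 (RFA1, RFA3 and TOP3), against 11.3% of all genes. The median was 0.023 over the 9 genes and 0.0043 over all genes.

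The difference between the responses of the strains was tested as an interaction, and 0 of the 9 passed by edgeR or by DESeq2. With edgeR 0% of all genes passed as higher and 0.0616% as lower, while 867 genes had an unadjusted p under 0.05 and DESeq2 called 36 higher and 30 lower. At an unadjusted p under 0.05 the response was lower in rad30Δ cells for 5 genes and higher for 1. The differences of response were -0.48 for EXO1 (SE 0.127, adjusted p = 0.169), -0.44 for SGS1 (SE 0.126, adjusted p = 0.189), -0.32 for DNA2 (SE 0.0989, adjusted p = 0.203), -0.21 for RFA2 and -0.20 for RFA3, and 0.95 for TOP3 (SE 0.297, adjusted p = 0.203). RFA1 differed from the other subunits in sign, at 0.080 with a 95% interval from -0.14 to 0.29. Without the third induced rad30Δ library the adjusted p was 0.0553 for EXO1, 0.0730 for SGS1, 0.0702 for TOP3 and 0.0899 for DNA2. A weaker response of these genes in rad30Δ cells was thus not shown with these libraries.

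Between the neighbouring groups in the order, rad30Δ cells after induction were compared with arrested WT cells. Of the 9 genes 4 were still lower, SGS1 by a log2 fold change of -0.53, RFA1 of -0.33, DNA2 of -0.32 and RFA2 of -0.24, and 0 were higher (also 0 at an unadjusted p under 0.05 and with DESeq2), against 9.71% lower and 9.51% higher over all genes. RFA3 (-0.16, adjusted p = 0.102), SRS2 (-0.16, adjusted p = 0.163) and EXO1 (-0.15, adjusted p = 0.290) did not pass. The call of RFA2 was lost without arrested WT replicate 2 (adjusted p = 0.0726).

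**Figure D4:**
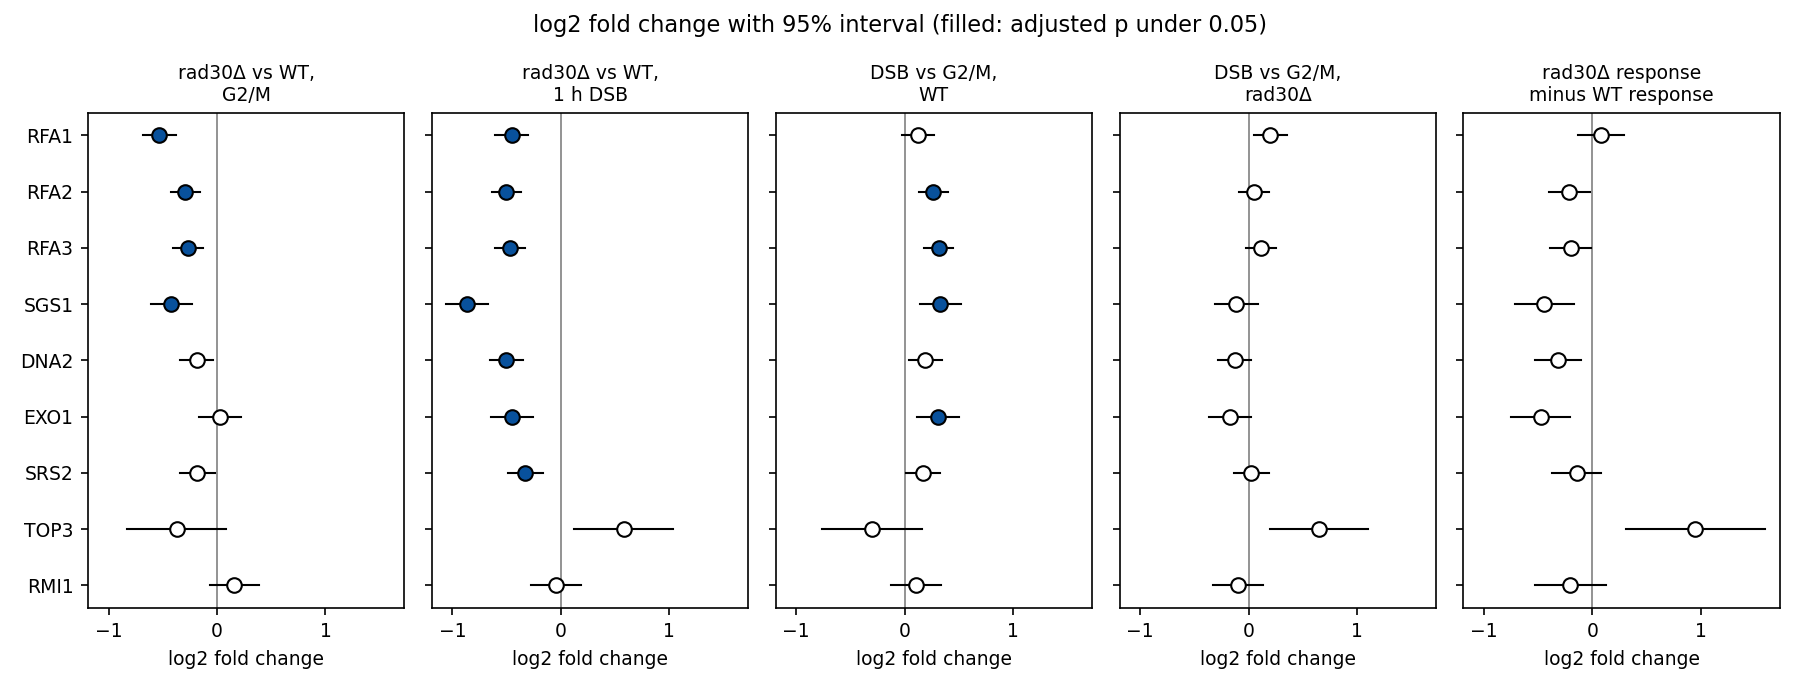
log2 fold change of the 9 genes with its 95% interval in 5 comparisons, filled where the adjusted p is under 0.05. There are 4 filled points to the left of 0 in G2/M arrest, 7 after DSB induction, 4 to the right of 0 for WT cells on induction, and none in the last 2 panels.

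Genes that act on the RPA-coated strand included several that were lower in rad30Δ cells as well. Of 13 such genes (checkpoint sensors and recombination genes) 5 were lower and 0 higher in G2/M arrest (4 and 0 with DESeq2, which did not call MEC3; 1 higher at an unadjusted p under 0.05): RAD52, RAD54, RAD57, RAD59 and MEC3, the last a subunit of the checkpoint clamp. Over all genes tested 6.1% were lower and 4.71% higher here. RAD52, a central gene of homologous recombination whose product binds RPA, had a mean of 127 CPM in arrested rad30Δ against 219 CPM in arrested WT cells, a log2 fold change of -0.79 (SE 0.0801, adjusted p = 4.06e-05). RAD54, a DNA translocase of recombination, had -0.54, and the RAD52 paralog RAD59 -0.60. After DSB induction 5 were lower and 0 higher (5 and 0 with DESeq2; 1 higher at an unadjusted p under 0.05), against 11.8% and 11.6% of all genes, with RAD52 at -0.84, RAD54 at -0.47, RAD59 at -0.76, RAD57, a subunit of a recombination mediator, at -0.24, and the translocase gene RDH54 at -0.40. The list's medians were -0.25 and -0.20, against -0.0011 and 0.0012 over all genes. RAD52 and RAD54 passed in both comparisons under each of the 18 alternatives, and RAD59 did so after induction. MEC3, RAD57 and RDH54, and RAD59 in arrest, were each lost without at least 1 library of the groups compared (adjusted p up to 0.181). The calls of RAD57 and RDH54 after induction were also lost with the compared libraries fitted alone. In arrest MEC3 was lost under 11 of the alternatives, RAD59 under 4 and RAD57 under 1. After induction RDH54 was lost under 5 and RAD57 under 2. On DSB induction 0 of the 13 passed in either strain by edgeR. At an unadjusted p under 0.05, 3 were higher in WT and 4 in rad30Δ cells, and DESeq2 gave 2 calls for WT, both higher, against 0 for rad30Δ.

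The 11 genes that start or regulate resection gave few calls: 1 was lower in arrest (6.1% of all genes), and after induction 2 were lower and 1 higher (11.8% and 11.6% of all genes). RAD50, a subunit of MRX, was lower in rad30Δ cells before (log2 -0.30, adjusted p = 0.0316) and after DSB induction (log2 -0.39, adjusted p = 0.00499). After induction RAD9, a checkpoint adaptor that limits resection, was also lower (log2 -0.26, adjusted p = 0.0275), and YKU80, a subunit of the Ku complex that shields DNA ends, was higher at 26.0 against 17.5 CPM (log2 0.58, adjusted p = 0.00760). The genes of the other subunits, MRE11 and XRS2 of MRX and YKU70 of Ku, did not pass at either time. Their strain differences after induction were -0.0069, 0.072 and 0.013 on the log2 scale. On DSB induction 0 of the 11 passed in either strain by edgeR or DESeq2, with 1 in WT and 2 in rad30Δ cells at an unadjusted p under 0.05. Of the 6490 genes tested, 1858 in WT and 1426 in rad30Δ cells had such a p. RAD50 and YKU80 passed after induction under each of the 18 alternatives, whereas RAD50 in arrest was lost without any arrested WT library or arrested rad30Δ replicate 1 or 2 (adjusted p up to 0.126), and RAD9 without any induced WT library or induced rad30Δ replicate 1, or with the compared libraries fitted alone (adjusted p up to 0.133).

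Among 12 other enzymes of joint DNA molecules, 0 differed between the arrested strains by edgeR or DESeq2, with 2 lower at an unadjusted p under 0.05. Such a p was found for 1491 of the 6490 genes tested, in either direction. After DSB induction the helicase gene RRM3 was lower (log2 -0.45, adjusted p = 0.0112) and ESC2 higher in rad30Δ cells (log2 0.48, adjusted p = 0.0153), 1 of 12 each way against 11.8% and 11.6% of all genes. In WT cells ESC2 fell by 0.55 on the log2 scale and MMS4, a subunit of the Mus81 nuclease, rose by 0.34. This was again 1 of 12 each way, against 6.29% and 6.07% of all genes. In rad30Δ cells 0 of the 12 passed by edgeR or DESeq2. There 1 had an unadjusted p under 0.05, against 1426 of the 6490 genes tested. The call of MMS4 was lost without any one WT library or arrested rad30Δ replicate 1 (adjusted p up to 0.139). The calls of ESC2 were lost without induced WT replicate 2 or 3, in WT also without arrested replicate 3 and between the strains without induced rad30Δ replicate 1 (adjusted p up to 0.0744), and the strain calls of ESC2 and RRM3 with the compared libraries fitted alone (adjusted p = 0.0565 and 0.0569).

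Because RPA genes are transcribed at the start of S phase, 17 S phase replication genes were followed too. POL1, the catalytic subunit of DNA polymerase α, was the single call in arrest by edgeR, and it was higher in rad30Δ cells (log2 0.27, adjusted p = 0.0243), though not without arrested WT replicate 1 or 3 or arrested rad30Δ replicate 2 or 3 (adjusted p up to 0.112). This was 1 of 17 genes, against 4.71% of all genes, and DESeq2 called 2 of the 17 higher. No gene of the list was lower in arrest by edgeR or DESeq2, and 2 were at an unadjusted p under 0.05. Of the 6490 genes tested, 1491 had such a p, in either direction. After DSB induction POL1 (log2 0.30) and TOS4 (log2 0.40) were higher and the flap nuclease gene RAD27 was lower (log2 -0.31, adjusted p = 0.00789, and 0.0615 with the compared libraries fitted alone). These 2 higher and 1 lower of 17 are 11.8% and 5.88%, against 11.6% and 11.8% of all genes, shares near or below those over all genes. The list's medians were 0.0091 and -0.048, against -0.0011 and 0.0012 over all genes. On DSB induction 0 of the 17 passed in WT by edgeR. At an unadjusted p under 0.05, 3 were higher, against 1858 of the 6490 genes tested in either direction. DESeq2 called 1 higher in WT, against 473 of 6107 genes. TOS4 rose by 0.38 on the log2 scale in rad30Δ cells. This call was lost without arrested rad30Δ replicate 1 or 3 or with the compared libraries fitted alone (adjusted p up to 0.147).

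Of 13 damage-inducible genes, 3 rose in WT on DSB induction and 0 fell, with 0 lower at an unadjusted p under 0.05 and by DESeq2, against 6.07% and 6.29% of all genes. RNR3, a ribonucleotide reductase subunit, rose from a mean of 18.1 to 31.7 CPM (log2 0.81, adjusted p = 8.32e-04), PLM2 by 0.62 and the reductase inhibitor HUG1 from 3.82 to 8.39 CPM (log2 1.12, adjusted p = 0.0360). In rad30Δ cells RNR3 (log2 0.57) and PLM2 (log2 0.47) rose, 2 of 13 against 3.68% of all genes. Between the strains MAG1, a DNA glycosylase, was lower at both times (log2 -1.10 in arrest and -1.15 after induction), as were the nucleotide excision repair genes RAD23 (-0.57 and -0.65) and RAD2 (-0.31 and -0.64), and after induction also RNR3 (-0.35) and HUG1 (-0.93). That is 3 of 13 lower in arrest and 5 of 13 after induction, against 6.1% and 11.8% of all genes. The HUG1 and RNR3 strain differences and that of RAD2 in arrest were lost under 8 or more of the 18 alternatives. The HUG1 rise in WT was lost without any one WT library (adjusted p up to 0.120), and the RNR3 and PLM2 rises in rad30Δ cells without arrested rad30Δ replicate 2, for PLM2 also without replicate 3, or with the compared libraries fitted alone (adjusted p up to 0.145). In the interaction 0 genes of any of the 5 lists passed by edgeR or DESeq2. In each list 1 to 3 genes had an unadjusted p under 0.05, against 867 of the 6490 genes tested.

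**Figure D5:**
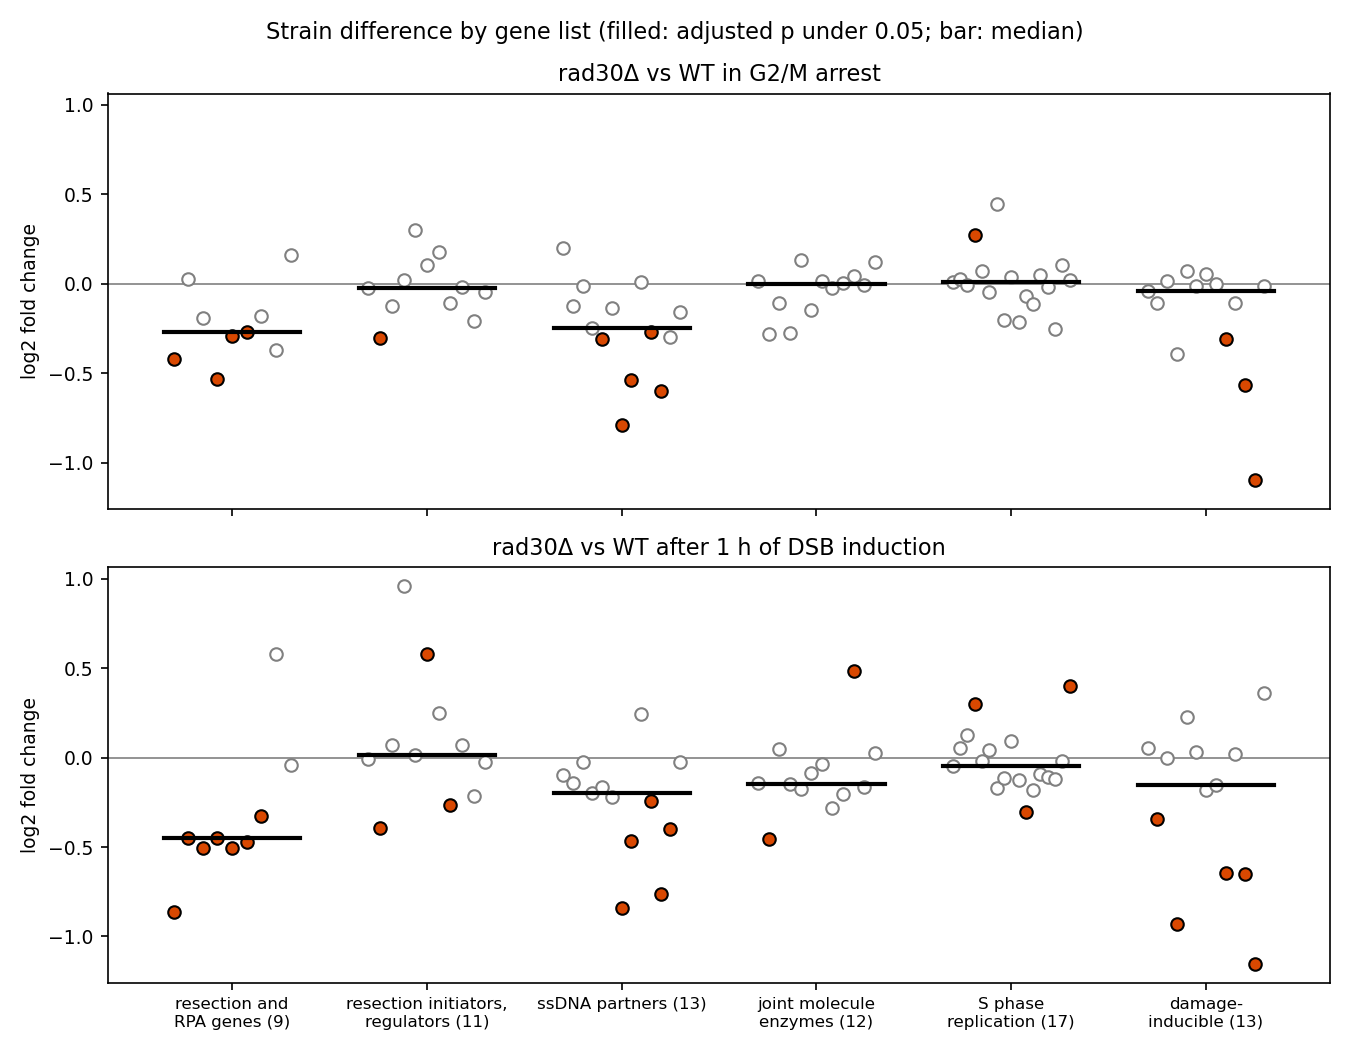
log2 fold change between rad30Δ and WT cells for the 9 genes and for 5 related gene lists, in G2/M arrest (top) and after DSB induction (bottom), with a point per gene, filled where the adjusted p is under 0.05, and a bar at the list's median. The 9 genes have medians of -0.27 and -0.45, the 13 partners on single-stranded DNA -0.25 and -0.20, and the 17 S phase genes 0.0091 and -0.048.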

How the data were processed

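Per the study's methods, mRNA was enriched and sequenced paired-end, trimmed with cutadapt, aligned to sacCer3 with HISAT2, cleared of duplicates with Picard and counted per gene with featureCounts, and duplicate removal can lower the counts of abundant genes. These deposited values are whole counts for 7123 genes. Deposited tables of the authors' DESeq2 comparisons (log2 fold changes, p-values) were not used, except for their column of gene lengths, of which 98.1% are multiples of 3 (coding length). The sources used here give neither tool versions nor strandedness.

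Counts were normalized by TMM and fitted over all 12 libraries with edgeR 4.0.16 (quasi-likelihood test, genes with at least 10 reads, Benjamini-Hochberg over 6490 genes, threshold 0.05) in R 4.3.3. SEs were derived from the F statistic. Log2 fold changes are first-named minus second-named group. The script was tested on simulated data. Alternatives were RLE factors, other filters, DESeq2 1.42.0, the compared libraries alone, a replicate block and leaving out each library. Induced rad30Δ against arrested WT was added after the counts were seen. Positions and windows before start codons were read from R64, the assembly named sacCer3, to which 6044 rows matched, with 99.8% of shared lengths equal. Named were all 9 genes, list genes that passed (the 4 smallest p where more than 4 did), and the 5 genes most like each RPA gene. Further list genes, passing or not, were named after their values were seen. Members and lists were chosen with earlier results of these data known. A gene fixed for one of the lists is not reported here.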

Additional observations from a re-analysis of the deposited data

How the results depend on the processing

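Of the values of the 9 genes under the alternatives, 930 kept their direction and their side of the threshold, 21 lost and 6 gained the threshold, and 6 reversed. The number of the 9 that passed on DSB induction in rad30Δ cells was 1 with DESeq2 and 0 to 1 without 1 library, and in WT cells it was 1 to 4 without 1 library. Reversals came from leaving out 1 library and touched values near 0 that never passed: EXO1 between arrested strains (-0.054 to 0.097), SRS2 (-0.033 to 0.092) and RMI1 (-0.22 to 0.022) on induction in rad30Δ cells, and RMI1 between the induced strains (-0.17 to 0.074) and between induced rad30Δ and arrested WT cells (-0.061 to 0.18). Fitted with only their own 6 libraries, DNA2 (adjusted p = 0.0405) and SRS2 (adjusted p = 0.0311) also passed in WT, and RFA2 no longer passed between induced rad30Δ and arrested WT cells (adjusted p = 0.0919). The cause was not tested.

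Counts over all genes moved more. With the compared libraries alone WT gave 1004 higher and 1089 lower genes (394 and 408 in the joint fit), rad30Δ 77 and 32 (239 and 172), the induced strains 466 and 421 (756 and 769), the arrested strains 509 higher (306), and induced rad30Δ against arrested WT 296 and 311 (617 and 630). DESeq2 gave 360 higher genes in rad30Δ cells and 36 and 30 in the interaction (0 and 4), and leaving out 1 library moved edgeR's counts both ways. WT ranged from 200 and 131 (without induced WT replicate 3) to 711 and 730 (without the third induced rad30Δ library). The arrested strains ranged from 131 higher (without arrested WT replicate 3) and 248 lower (without arrested WT replicate 2) to 528 and 576, and the induced strains from 409 and 484 (without induced WT replicate 3) to 968 and 1037, with the highest counts again without the third induced rad30Δ library. In rad30Δ cells the range was 141 to 380 higher and 77 to 322 lower (lowest without arrested rad30Δ replicate 3 and 1, highest without induced replicate 2), in the interaction 0 to 76 and 4 to 65 (highest without the third induced rad30Δ library), and for induced rad30Δ against arrested WT 382 to 824 and 417 to 691 (lowest without arrested WT replicate 3, highest without induced rad30Δ replicate 2).

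Replicate numbers are shared by the groups, but nothing states that they mark a shared culture. Residuals of equal numbers before and after induction correlated at 0.0381, 0.103 and 0.00393 for WT, whereas rad30Δ cells gave 0.194, 0.148 and 0.343, over all genes tested, and in WT replicates 1 and 3 did not correlate best with their own number. Over genes of at least 10 CPM the WT values were 0.162, 0.233 and 0.108 and the rad30Δ values 0.335, 0.266 and 0.422, and all 6 were above those of any other number, a hint of pairing from the data. With a replicate block the number of the 9 that passed was 4 between arrested strains, 7 between induced strains, 4 in WT, 0 in rad30Δ cells and 0 in the interaction, as without it. The replicate block gave 505 and 541 genes in WT and 11 and 8 in the interaction.

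Depth limits TOP3 most of the 9, at 54 to 143 reads per library, and among the listed genes SAE2 (group means of 1.76 to 3.49 CPM) and HUG1 (2.96 to 8.39 CPM).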

Other observations

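The pattern of each RPA gene over the 12 libraries was compared with all 5433 genes of at least 10 CPM, as a description in which strain, mating type and induction are shared by all points. Nearest to RFA1 in log2 CPM were KHA1 (Pearson r 0.988), ATG1 (0.986), CAB1 (0.976), LSB3 (0.975) and GSC2 (0.972). Nearest to RFA2 were CMI8 (0.970), ATG34 (0.968), SDH9 (0.964), GSC2 (0.963) and IRC20 (0.963). Nearest to RFA3 were SGT2 (0.984), POM33 (0.981), UMP1 (0.981), TIR3 (0.969) and RRD2 (0.963). GSC2 was the single gene on more than 1 of these lists.

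Among the 9 genes themselves, SGS1 and DNA2, which act together in resection, had the highest r over the 12 libraries (0.963), and RFA2 and RFA3 had 0.936. RFA1 was nearer to RFA2 (0.914) than to EXO1 (0.450). RMI1 lay at 0.00441 with SGS1, its partner, and TOP3 at -0.337 with SGS1 and -0.507 with RMI1. The 12 points fall into 4 groups that share strain and treatment, so these values describe the group order and carry no test.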
